A study of Danio rerio with 2 samples.

Results

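TAL1, LMO2 and GFI1B, 3 genes for transcription regulators of blood development, were followed cell by cell in the caudal hematopoietic tissue of zebrafish, the niche in the tail where blood stem and progenitor cells lodge before they reach the adult site. They were read by ID from the 19955 gene rows of both deposited plates as TAL1 (ENSDARG00000019930), LMO2 (ENSDARG00000095019) and GFI1B (ENSDARG00000079947), and each was present on both plates. All wells came from wild-type larvae at 5 days post fertilization with a labelled sort day of 6, and the cells were sorted for hematopoietic stem and progenitor cells into 2 plates of 384 wells, plate 20 and plate 21. The layouts gave each well as double, single or undefined without naming the markers behind these words. Wells with at least 500 transcripts were taken as cells, which left 189 double and 111 single cells on plate 20, and 186 double and 89 single cells on plate 21. Nothing in the labels ties the plates to different animals, so the spread between plates may be technical. The layout of plate 21 carried no well numbers, and values by class on that plate rest on reading it along rows.

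TAL1 encodes a basic helix-loop-helix factor and LMO2 a LIM-only protein that does not bind DNA itself. In mammals LMO2 bridges TAL1 and its E-protein partner to LDB1 and a GATA factor, and this complex acts first in the formation of blood stem cells and later, with GATA1, at genes of red cells. GFI1B is a zinc-finger repressor that recruits the histone demethylase KDM1A and is needed for red cells and platelets in mice.

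Median depth on plate 20 was 7170 transcripts for double cells and 8257 for single cells, and on plate 21 it was 9395 for double cells and 8634 for single cells. Transcripts were counted by molecular identifiers, so that 1 is the lowest value a cell can have above 0. The deepest cell, a double cell on plate 20, had 249815 transcripts with 16.6% from muscle genes, and class, globin-bin and cluster levels of plate 20 that include it are also given without it. Intervals of levels and shares are exact at 95% and cover counting error only. Those of the log2 folds between sort classes come from the fitted test instead and are approximate.

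TAL1 was the most often detected of the 3 genes, LMO2 was next and GFI1B was rare. TAL1 was found in 199 of 300 cells on plate 20 and 200 of 275 on plate 21. The median over cells with TAL1 was 5 transcripts on plate 20 and 6 on plate 21. The highest cells had 46.3 and 49.3. LMO2 was found in 166 and 178 cells, with medians of 2.5 and 3 transcripts in those cells. GFI1B was found in 47 and 54 cells, of which 33 and 38 held a single transcript. The transcripts were unevenly spread over cells: the tenth of cells with most TAL1 held 42.3% of it on plate 20 and 40.6% on plate 21, and the tenth with most LMO2 held 45.6% and 40.8%. The 249815-transcript well alone held 12.8% of the GFI1B transcripts of plate 20.

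Between the sort classes none of the 3 genes differed past the threshold of the test. Levels are given in CPM, transcripts scaled to a total of 1000000, here of all transcripts. TAL1 had 417 CPM in double cells of plate 20 and 475 in single cells of that plate, and 490 in double cells and 509 in single cells of plate 21. Without the largest well the double cells of plate 20 had 457. Double cells were thus lower on both plates, but the counting intervals of the classes overlapped on both. On plate 20 double cells, with the largest well, spanned 387 to 447 and single cells 433 to 519.5. On plate 21 double cells spanned 460 to 521 and single cells 464 to 557. The log2 fold of double over single cells was -0.14 ± 0.13 (SE, 2 plates; 95% interval -0.48 to 0.19; adjusted p = 0.840 by edgeR's quasi-likelihood test with Benjamini-Hochberg adjustment).

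LMO2 had 209 CPM in double cells against 218 in single cells of plate 20, and 246 CPM in double cells against 245 in single cells of plate 21. The order of the classes in CPM, before the further scaling of the test, thus differed between plates. Without the largest well the double cells of plate 20 had 230 CPM, so that double cells then stood above single cells on both plates. The log2 fold of the test without this well was -0.03. With all cells the log2 fold of LMO2 was -0.05 ± 0.15 (SE; 95% interval -0.43 to 0.33; adjusted p = 0.960 by edgeR's quasi-likelihood test).

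GFI1B rested on few molecules, 50.01 transcripts for double cells and 28 for single cells on plate 20 and 51 for double cells and 26 for single cells on plate 21. These gave 27.4 CPM in double cells against 27.7 in single cells of plate 20, and 24.3 CPM in double cells against 27.8 in single cells of plate 21. The log2 fold was -0.13 ± 0.28 (SE; 95% interval -0.83 to 0.58; adjusted p = 0.939 by edgeR's quasi-likelihood test), and its per-plate values were 0.03 on plate 20 and -0.29 on plate 21. Without the largest well the double cells of plate 20 had 25.4 CPM of GFI1B and the log2 fold was -0.23. The interval, from 2 plates and few transcripts, reaches a fall of 0.83 on the log2 scale.

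Detection per cell stood in the same order in both classes. TAL1 was found in 64.6% of double against 69.4% of single cells on plate 20, and in 71.5% of double against 75.3% of single cells on plate 21. LMO2 was found in 53.4% of double against 58.6% of single cells on plate 20, and in 62.9% of double against 68.5% of single cells on plate 21. GFI1B was found in 14.3% of double against 18.02% of single cells on plate 20, and in 18.8% of double against 21.35% of single cells on plate 21. Single cells had the higher share for each gene on both plates at these depths, and also in the shares expected over all draws of 2000 transcripts per cell, where LMO2 had 30.9% in double against 32.1% in single cells on plate 20 and 31.4% in double against 35.9% in single cells on plate 21. In 1 draw LMO2 on plate 21 went the other way, with 29.9% in double against 25% in single cells.

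Across all 8488 genes tested, 0 (0%) passed an adjusted p of 0.05 by edgeR's quasi-likelihood test, although 725 fell under 0.05 before adjustment and the Wald test of DESeq2 called 28. A p that misses the threshold here does not show that the classes are alike. The classes also differed in makeup: 21.7% of double against 36.04% of single cells on plate 20, and 19.4% of double against 46.1% of single cells on plate 21, had at least 5% of their transcripts from globin genes. In sums over cells, fewer expressing cells and less RNA per cell cannot be told apart. The part of this makeup in the class values was not tested by a model; without the cells of at least 5% globin the log2 fold of double over single cells was -0.12 for TAL1, near its value with them. It was 0.06 for LMO2 and 0.12 for GFI1B, both with the opposite sign, and the adjusted p of the 3 genes was 0.962, 0.981 and 0.984 by edgeR's quasi-likelihood test.

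**Figure D1:**
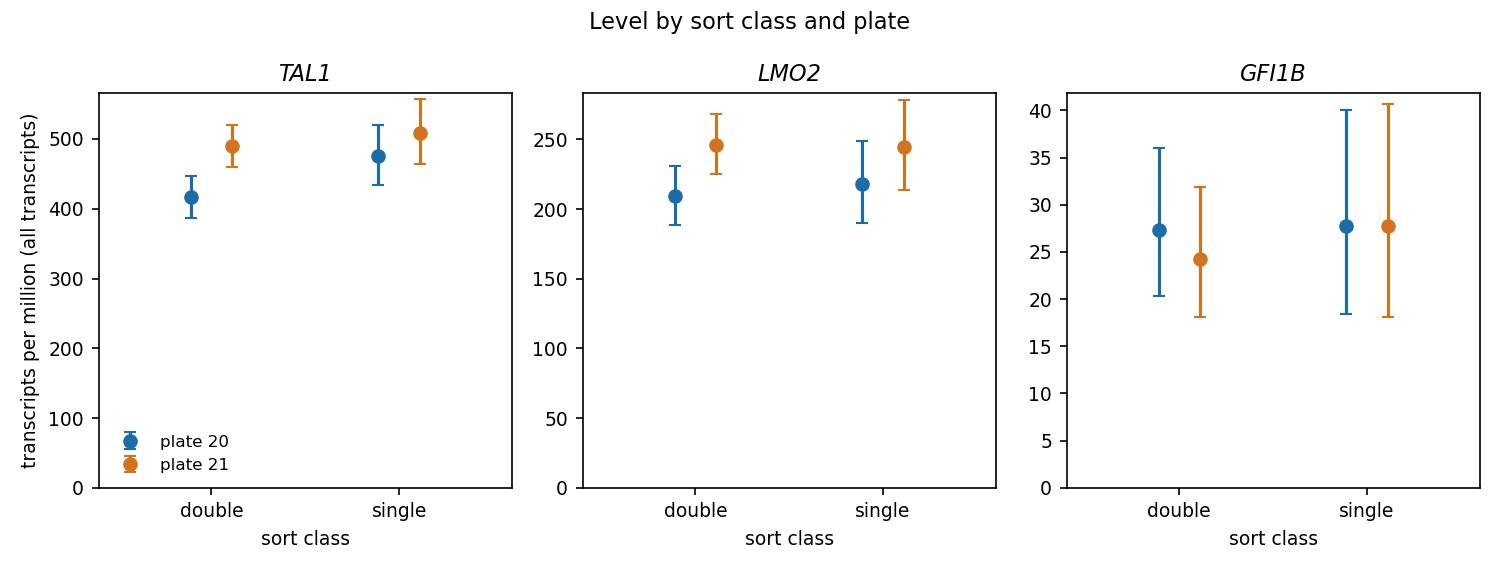
CPM of all transcripts (vertical axis, from 0) of TAL1, LMO2 and GFI1B in double and single cells, with plate 20 in blue and plate 21 in orange; points are sums over cells and bars are exact 95% counting intervals. Double and single cells lie close together for each gene, as for LMO2 on plate 21 with 246 in double and 245 in single cells.

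Along the globin share of the cell, all 3 genes were higher in the bins from 1 to 20% globin than under 1%. GFI1B had the highest ratio of the 3 at the limits used here. Globin genes make the oxygen carrier of red cells, so their share grows as erythroid cells mature. Cells were placed in 4 bins, under 1%, 1 to 5%, 5 to 20% and at least 20% globin, and levels were expressed as CPM of non-globin transcripts so that globin itself could not dilute them. Since the bins were made from these cells, their values are descriptions with no test.

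TAL1 had 368, 474 and 597 non-globin CPM in the first 3 bins of plate 20, and 364, 661 and 599 in those of plate 21. The well of 249815 transcripts lay in the 1 to 5% bin of plate 20, and without it TAL1 had 589 CPM there. TAL1 was thus about level between 1 to 5% and 5 to 20% globin on plate 20 without this well, and highest at 1 to 5% on plate 21. In the bin of at least 20% globin, TAL1 was at 353 CPM on plate 20 and 313 on plate 21, but these bins held 6 and 5 cells and only 9 and 7 TAL1 transcripts, with intervals of 161 to 669 and 126 to 645. LMO2 had 175, 243 and 269 non-globin CPM in the first 3 bins of plate 20 and 178, 338 and 283 in those of plate 21. Without the deepest well LMO2 had 304 CPM in the second bin of plate 20, so that this bin then stood above the third on both plates. Its values in the last bin were 392 and 402, from 10 and 9 transcripts, so that the point estimates of TAL1 and LMO2 parted there while their intervals stayed wide. GFI1B had 14.8, 38.5 and 40.6 non-globin CPM in the first 3 bins of plate 20 and 13.3, 34.1 and 38.5 in those of plate 21. In the last bin GFI1B had 1 transcript on plate 20 and 0 on plate 21. The deepest well held 10.01 of the 35.01 GFI1B transcripts in the 1 to 5% bin of plate 20, which had 37.6 CPM without it.

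Cells of at least 5% globin against cells under 1% had TAL1 1.60-fold higher on plate 20 and 1.62-fold on plate 21, a mean log2 ratio of 0.69. LMO2 was 1.57-fold and 1.61-fold higher, a mean log2 ratio of 0.67. GFI1B was 2.71-fold and 2.78-fold higher, a mean log2 ratio of 1.46, and was the one gene of the 3 past 2-fold on both plates. Over 8480 non-globin genes, 683 (8.05%) were at least 2-fold higher and 1443 (17%) at least 2-fold lower in the globin-rich cells of both plates, and the median log2 ratio was -0.04. With the limits moved to under 2% and at least 20% globin, the log2 ratio was -0.19 for TAL1, 1.1 for LMO2 and 0.75 for GFI1B, from the few cells of the last bin. The GFI1B ratio came from 25 transcripts in globin-rich cells against 18 in low-globin cells of plate 20, and from 32 against 16 on plate 21. Split by class it was uneven: double cells of plate 20 had 56.8 CPM in globin-rich against 13.6 in low-globin cells, while single cells of plate 20 had 21.2 against 17.3. In plate 21 the double cells had 25.4 CPM in globin-rich against 16.8 in low-globin cells, and single cells had 20 transcripts in 41 globin-rich cells against 0 in 27 low-globin cells. In single cells of plate 20 and double cells of plate 21 GFI1B was, in proportion, the least changed of the 3, beside LMO2 at 294 CPM in globin-rich against 161 in low-globin single cells of plate 20 and 281 in globin-rich against 181 in low-globin double cells of plate 21. TAL1 was steadier, at 580 to 595 CPM in the globin-rich cells of each class and plate against 347 to 430 in the low-globin cells.

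**Figure D2:**
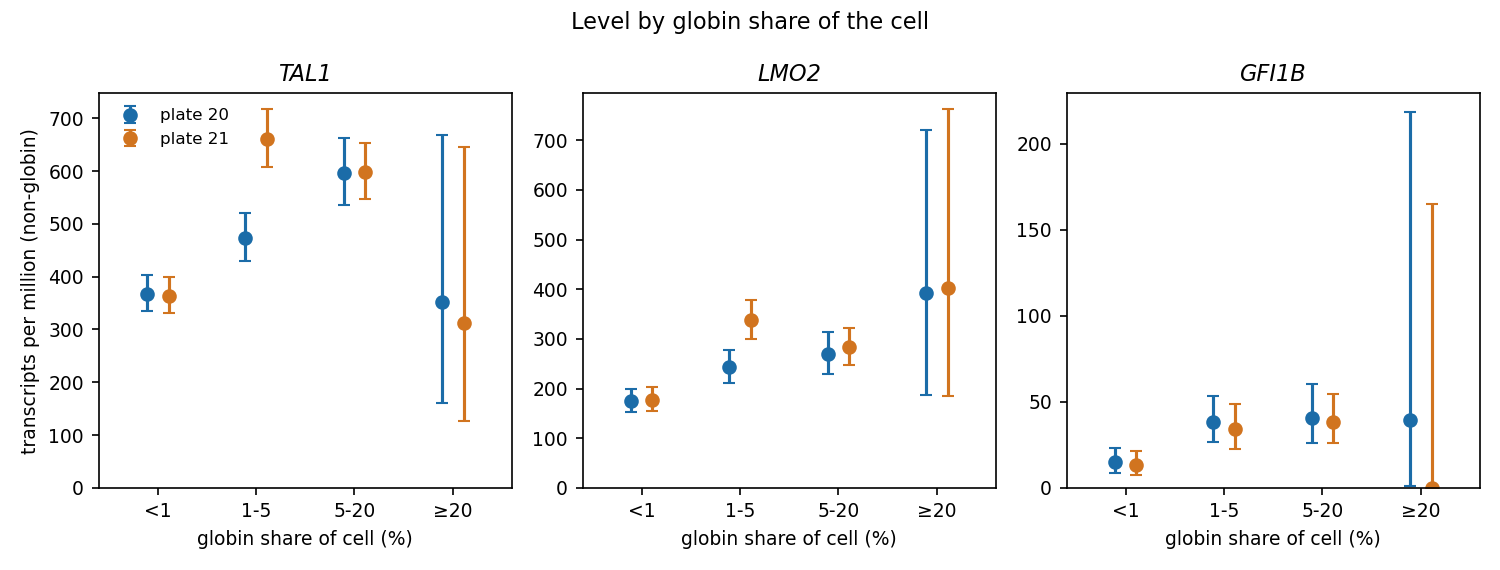
CPM of non-globin transcripts (vertical axis, from 0, own scale for each gene) against the globin share of the cell in 4 bins, with plate 20 in blue and plate 21 in orange; bars are exact 95% counting intervals, and the well of 249815 transcripts is included. TAL1 and LMO2 are lowest under 1% globin among the bins below 20%, and GFI1B is at 14.8 and 13.3 CPM there and between 34.1 and 40.6 CPM at 1 to 20%.

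Detection per cell was also lowest under 1% globin among the bins below 20% when depth was equalized. Over all random draws of 2000 transcripts per cell, TAL1 was expected in 29.6%, 66.8% and 63.8% of cells in the first 3 globin bins of plate 20 and in 35.9%, 68.4% and 60.8% of those of plate 21. LMO2 was expected in 20.1%, 46.1% and 37.3% of cells on plate 20 and in 22.5%, 44.8% and 39.9% on plate 21. Both genes were thus most often expected at 1 to 5% globin among these bins, in the cells with at least 2000 transcripts. On plate 20 these were 57 of 79 cells at 1 to 5% globin and 72 of 75 at 5 to 20%. On plate 21 they were 61 of 69 and 70 of 72. The 2000 transcripts were drawn with globin included, so cells rich in globin gave fewer draws of other genes. The part of the uneven loss of cells and of globin in the lower TAL1 and LMO2 shares at 5 to 20% globin was not tested. GFI1B was expected in 1.79%, 7.84% and 6.23% of cells on plate 20 and in 2.03%, 5.09% and 8.33% on plate 21. Without thinning, TAL1 was found in 48.6%, 73.4% and 90.7% of cells on plate 20 and 55.04%, 88.4% and 90.3% on plate 21, with median depths of 6836 to 8599 on plate 20 and 7581 to 10162 on plate 21. GFI1B was found without thinning in 7.86% of cells under 1% globin on plate 20 and 10.08% on plate 21.

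The cells with little globin were not uniform. MYB, a factor of blood progenitors, was detected in 84 of the 140 cells under 1% globin on plate 20 and in 73 of the 129 on plate 21. TAL1 had 452 and 466 non-globin CPM in these MYB-detected cells, against 77.02 and 84.04 CPM in the low-globin cells without MYB. LMO2 had 215 and 221 CPM with MYB against 36.7 and 59.1 without. GFI1B had 17 and 18.1 CPM with MYB, from 16 transcripts on each plate, against 2 and 0 transcripts without. The 3 genes were thus scarce in low-globin cells in which MYB was not detected. Those cells were also shallower, with median depths of 9547 and 10362 with MYB and 4363 and 4314 without, and the part of depth in the split was not tested. Set against the MYB-detected low-globin cells, the globin-rich cells had TAL1 1.297-fold and 1.27-fold higher, LMO2 1.27-fold and 1.29-fold higher, and GFI1B 2.36-fold and 2.04-fold higher on plates 20 and 21.

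Clustering the 575 cells with the 3 genes left out gave 8 clusters, and these placed most TAL1, LMO2 and GFI1B in a pair of them. The pair held 143 and 220 of the cells, at median depths of 13244 and 8687 transcripts, so levels are compared as CPM. The first of the pair was led by blf, MEF2A, F2R and MYC, and the second was led by globin genes. MYB had 499 and 511.5 CPM in the first on plates 20 and 21, and 357 and 388 in the second. Median globin shares were 3.12% and 1.23% in the first and 6.09% and 5.33% in the second. klf1, an erythroid factor gene, had 427 and 351.5 CPM in the blf/MEF2A-led cells and 450 and 448.5 CPM in the globin-led cells. In the blf/MEF2A-led cells TAL1 had 629 CPM on plate 20 and 733 on plate 21, LMO2 305 and 354, and GFI1B 36.5 and 36.8. In the globin-led cells TAL1 had 591 and 580 CPM, LMO2 296 and 289, and GFI1B 33.6 and 30.7. The counting intervals of both clusters overlapped for each gene on plate 20, while on plate 21 TAL1 spanned 675.5 to 794 CPM in the blf/MEF2A-led cells and 541.5 to 620 in the globin-led cells.

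The leukocyte clusters were low in TAL1 and LMO2 and had few or no GFI1B transcripts. Neutrophil-like cells, with 30846 and 32983 CPM of the lysozyme gene lyz, had TAL1 at 58.1 and 58.6 CPM, LMO2 at 6.46 and 29.3, and 1 GFI1B transcript on each plate. A TAL1 transcript was seen in 26.9% of these cells on plate 20 and 30.4% on plate 21, at median depths of 5167 and 6710. The source of these transcripts was not tested. Macrophage-like cells, with 3192 and 1104 CPM of MFAP4, had 3 and 2 TAL1 transcripts and 0 of GFI1B. The upper limits of GFI1B were 36 and 32.7 CPM in neutrophil-like cells and 45.9 and 70.1 in macrophage-like cells. These overlapped its intervals in the blf/MEF2A-led cells, but overlap of intervals does not show that levels are alike. The point values were lower, at 6.46 and 5.86 CPM in neutrophil-like and 0 in macrophage-like cells, and the difference was not tested. A cluster led by si:dkey-21e2.16, rgs13a and rgs18, with the chemokine receptor gene CCR9 among its leading genes, had TAL1 at 52.9 and 53.8 CPM, LMO2 at 79.3 and 80.7, and GFI1B at 0 in its 27 and 26 cells. The upper limits of the GFI1B counting intervals there were 24.4 and 19.8 CPM, below the lower limits of 26.6 and 24.9 in the blf/MEF2A-led cells. In the globin-led cells the lower limits were 20.8 and 22.4 CPM, so the intervals overlapped on plate 20 and not on plate 21. A shallow cluster led by col1a1a and RANBP10 had TAL1 at 196 and 222 CPM and LMO2 at 73.8 and 76.3, and the 249815-transcript well, which fell in it, held 40.2 of its 90.2 TAL1 transcripts on plate 20. Without that well the plate 20 cells of this cluster had 233 CPM of TAL1 and 69.8 of LMO2, and 9.30 of GFI1B against 26.03 with it. On plate 21, 1 cell of 27941 transcripts held 24.07 of the 32.07 TAL1 transcripts of this cluster, so the 222 CPM there rests mostly on that cell. Cells led by keratin and collagen genes had 4 and 3 TAL1 transcripts, and the 14 cells of the remaining cluster, at a median depth of 833, had 0 and 1.

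**Figure D3:**
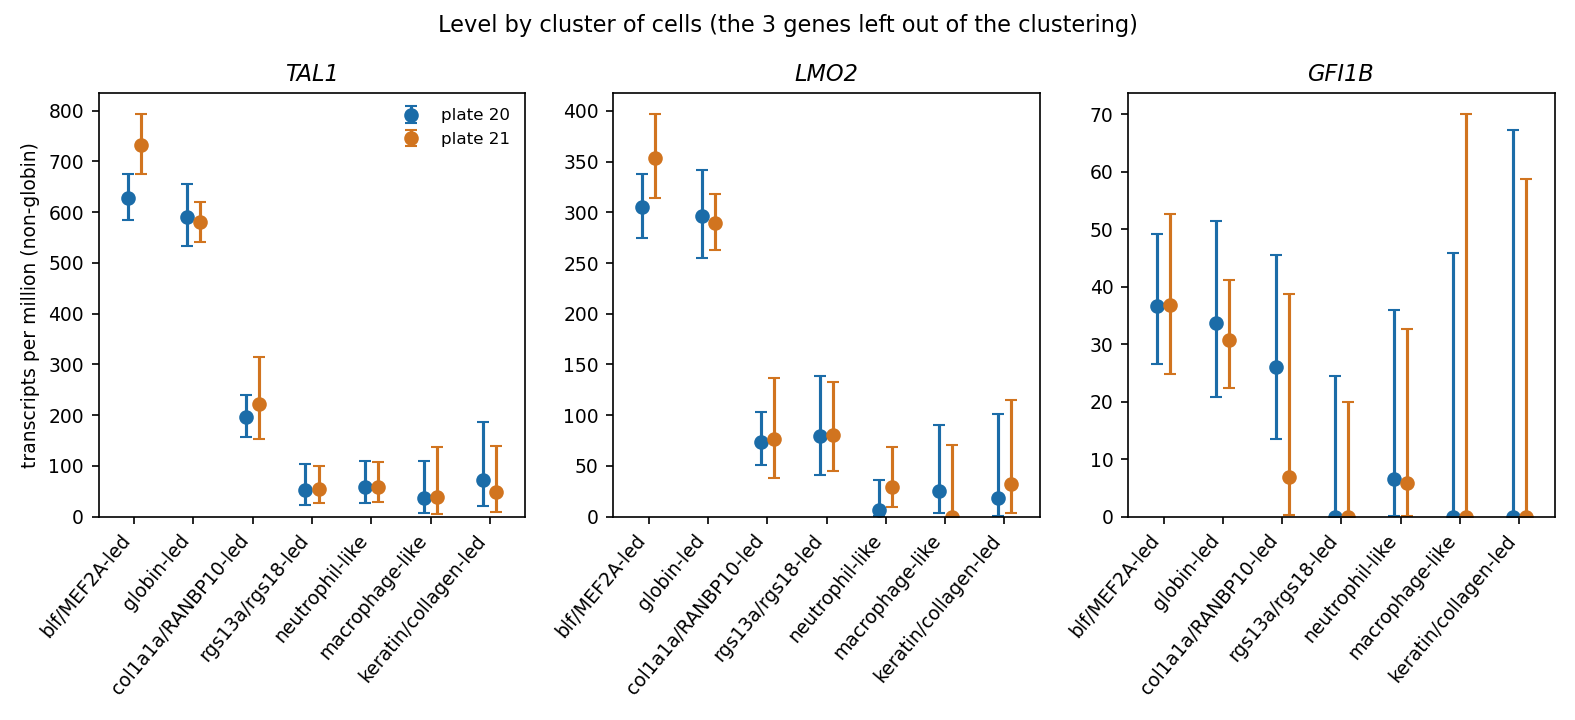
CPM of non-globin transcripts (vertical axes, from 0) of TAL1, LMO2 and GFI1B in 7 of the 8 cell clusters, with plate 20 in blue and plate 21 in orange; bars are exact 95% counting intervals, and the cluster of 14 shallow cells is not drawn. TAL1 lies between 580 and 733 in the blf/MEF2A-led and globin-led clusters and at most 72.8 in the 4 clusters at the right.

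TAL1 and LMO2 kept a near-constant proportion over the sort classes and the globin bins under 20%. Of the identifiers of both genes together, LMO2 made 32.7% (30.6 to 34.9) on plate 20 and 33.1% (31.2 to 35.1) on plate 21. On plate 20 it made 33.5% in double cells and 31.5% in single cells, and on plate 21 33.4% in double cells and 32.5% in single cells. In the first 3 globin bins it was 32.2%, 33.9% and 31.1% on plate 20 and 32.8%, 33.8% and 32.1% on plate 21. The rgs13a/rgs18-led cells had a higher point value, with LMO2 at 60% on both plates, 12 of 20 identifiers (36.1 to 80.9%) on plate 20 and 15 of 25 (38.7 to 78.9%) on plate 21. Both intervals lie above the share over all cells, but they treat each identifier as independent. LMO2 was found in only 7 of the 26 cells of this cluster on plate 21, and 1 of them held 6 of the 15 LMO2 identifiers. The cluster was also chosen for mention after its values were seen and is given with no test. In the bin of at least 20% globin LMO2 made 52.6% of 19 identifiers and 56.3% of 16, with intervals that include the share over all cells of plates 20 and 21.

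**Figure D4:**
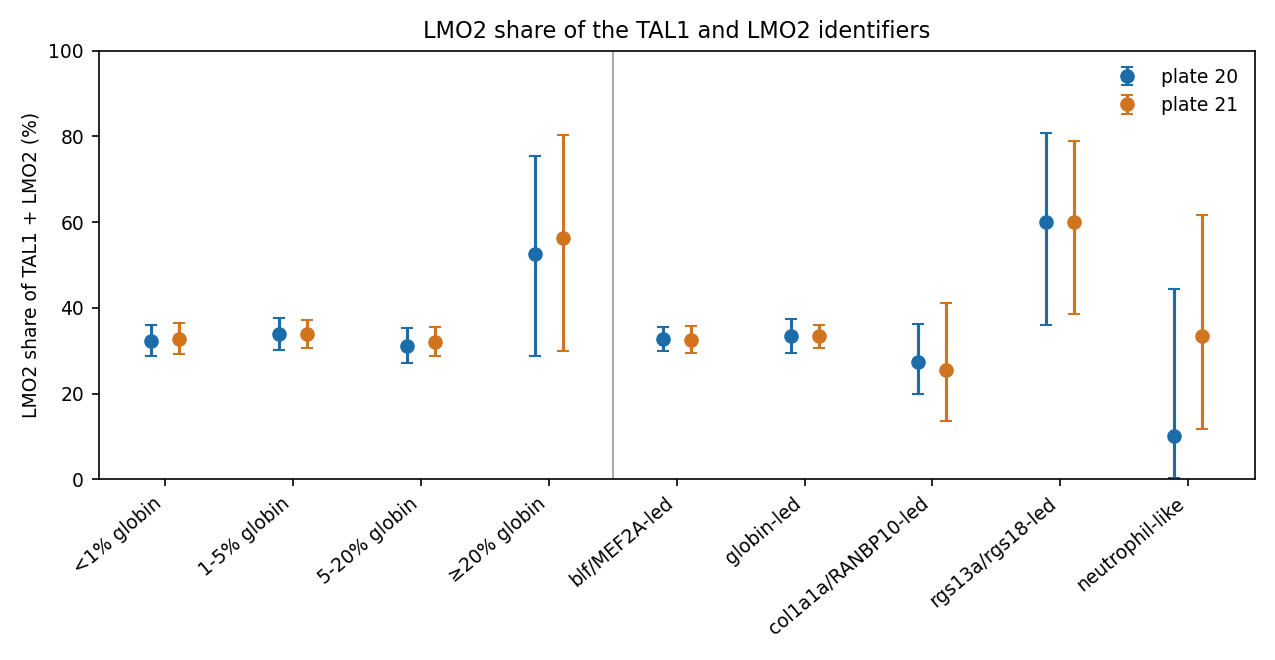
LMO2 identifiers as a percent of TAL1 plus LMO2 identifiers (vertical axis, 0 to 100) by globin bin at the left and by cluster at the right, with plate 20 in blue and plate 21 in orange; bars are exact 95% binomial intervals, and clusters with at most 5 identifiers on a plate are not drawn. The share lies near 33% in bins under 20% globin and at 60% in the rgs13a/rgs18-led cells.

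TAL1 and LMO2 were often seen in the same cells. Without thinning, 157 of 199 cells with TAL1 also had LMO2 on plate 20 and 160 of 200 on plate 21, against 9 of 101 and 18 of 75 cells without TAL1. Deep cells show more genes of every kind, so the comparison was repeated at 2000 transcripts per cell, with the values expected over all random draws. LMO2 was then expected in 43.1% of cells with TAL1 and 20.6% of cells without it on plate 20, and in 40.7% and 24.7% on plate 21. A single draw gave 47.2% with TAL1 and 27.7% without on plate 20, and 37.96% and 17.1% on plate 21. The difference was wider in cells under 1% globin, where LMO2 was expected in 39.7% of cells with TAL1 against 11.8% without on plate 20, and in 34.95% against 15.6% on plate 21. At 1 to 5% globin the expected shares were 48.4% with TAL1 and 41.7% without on plate 20, and 45.1% and 44.01% on plate 21. At 5 to 20% globin they were 40.7% and 31.2% on plate 20, and 41.99% and 36.7% on plate 21. In the single draw the 1 to 5% bin of plate 20 went the other way, with LMO2 in 51.4% of cells with TAL1 and 72.7% without. That bin of plate 21 had 39.02% and 25% in the single draw. The bins were not compared by a test, and the low-globin bin is the one that also holds the neutrophil-like and macrophage-like cells.

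**Figure D5:**
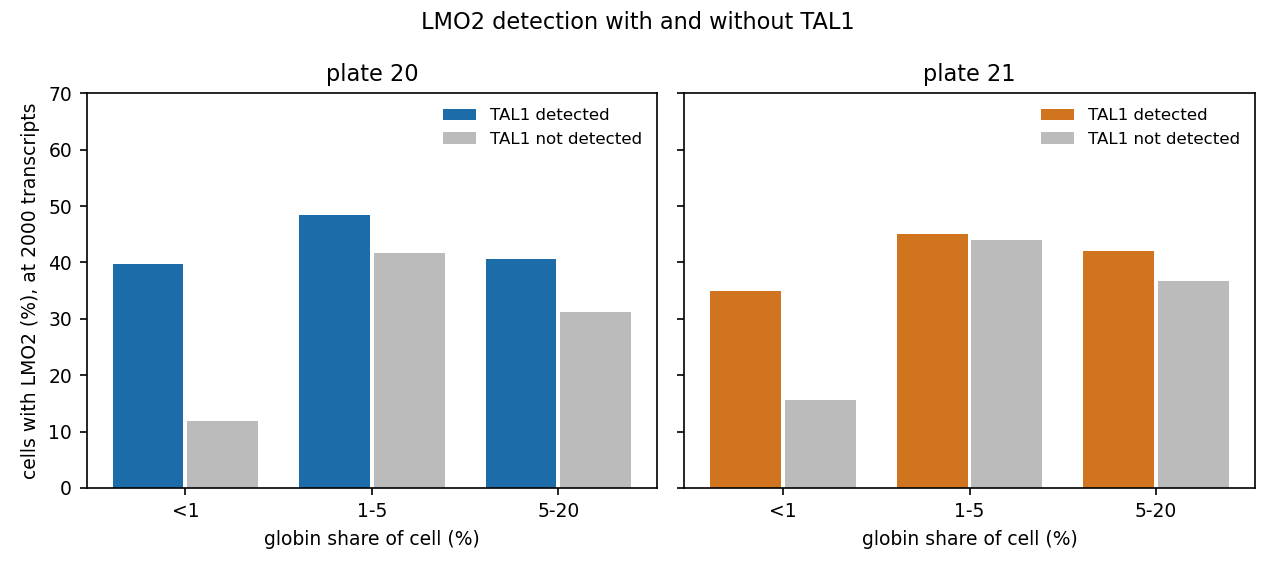
Percent of cells with LMO2 (vertical axis, from 0) expected at 2000 transcripts per cell, in cells with TAL1 (coloured) and without TAL1 (grey), in 3 bins of globin share for plate 20 and plate 21. Under 1% globin the bars are 39.7% with TAL1 and 11.8% without on plate 20, while at 1 to 5% globin on plate 21 they are 45.1% and 44.01%.

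GFI1B was found almost wholly inside the cells with TAL1 at full depth. Of its 47 cells on plate 20, 45 also had TAL1 and 42 had LMO2; of its 54 cells on plate 21, 52 had TAL1 and 44 had LMO2. Over all cells TAL1 was itself found in 66.3% on plate 20 and 72.7% on plate 21, and LMO2 in 55.3% and 64.7%. All 3 genes were seen together in 41 and 43 cells, and GFI1B without either of the others in 1 cell on each plate. At 2000 transcripts per cell GFI1B was expected in 6.50% of cells with TAL1 against 2.85% of cells without it on plate 20, and in 6.06% against 2.83% on plate 21. With LMO2 it was expected in 6.80% of cells against 3.57% without on plate 20, and in 5.39% against 4.01% on plate 21. These pooled differences were not seen in every globin bin: the expected difference of GFI1B with and without TAL1 was -1.86 points at 1 to 5% globin on plate 21 and -0.33 at 5 to 20% on plate 20. With and without LMO2 it was -0.54 and -1.34 points at 5 to 20% globin on plates 20 and 21. In 1 draw, the mean difference over plates for TAL1 and GFI1B was 2.23 points over all cells and 0.0835 in cells of at least 1% globin.

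Across cells, levels of TAL1 and LMO2 on the scale log2(non-globin CPM + 100) had a Pearson correlation of 0.63 over the 300 cells of plate 20 and 0.56 over the 275 of plate 21. Those of TAL1 with GFI1B were 0.26 and 0.28, and those of LMO2 with GFI1B 0.24 and 0.145. TAL1 also correlated with depth, at 0.48 and 0.42. The cells of a plate share library, depth and cell-type makeup, so these values are descriptions.

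Over the 12 sums by plate, class and globin bin, the genes whose log2 levels were most like those of TAL1 were ENSDARG00000068724 (Pearson correlation 0.95), PRDX3, a mitochondrial peroxidase gene (0.95), TYMS, for thymidylate synthase (0.94), ATP2B1, a calcium pump gene (0.93), and TCIM (0.93). LMO2 ranked 19 among 3129 genes for TAL1, at 0.91, and TAL1 ranked 9 for LMO2. Those most like LMO2 were LSM8, an RNA-binding protein gene (0.95), ATP2B1 (0.95), ENSDARG00000035750 (0.93), GSTM3, a glutathione transferase gene (0.93), and PSMD1, for a proteasome subunit (0.91). Those most like GFI1B were CIAO2B (0.94), MED23, for a Mediator subunit (0.93), si:dkeyp-120h9.1 (0.93), CDK1, the mitotic kinase (0.92), and kifc1, a kinesin gene (0.91). TAL1 and LMO2 ranked 796 and 476 for GFI1B, at 0.57 and 0.67. The sums share plates and globin bins, and GFI1B had few transcripts in each. The sum of double cells at 1 to 5% globin on plate 20 includes the 249815-transcript well, which held 10.01 of its 20.01 GFI1B transcripts. These correlations are not given without that well.

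Partners and relatives of the 3 factors were read from a list of 49 names, of which 31 matched a row and 21 were tested. Of these, 0 were called between double and single cells by edgeR's quasi-likelihood test, 11 had values above 0 and 10 below, and their median log2 fold of 0.04 stood beside 0.01 over all genes. The 6 with most transcripts were gata1a, MYB, klf1, HDAC1, CBFA2T3 and klf17. gata1a, the GATA factor of red cells, had 377 CPM in double against 449 in single cells of plate 20 and 367 in double against 446 in single cells of plate 21 (log2 fold -0.29 ± 0.14, SE; adjusted p = 0.655 by edgeR's quasi-likelihood test). klf1 had log2 folds of -0.36 and klf17, a relative of klf1, of -0.35 for double over single cells. HDAC1, a histone deacetylase that corepressors recruit, had -0.18, CBFA2T3, a corepressor gene, -0.02, and MYB 0.06; the adjusted p of these 6 genes was 0.591 or above.

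Along globin, partner genes lay on both sides. Of the 21 tested, 4 were at least 2-fold higher in globin-rich than in low-globin cells of both plates and 3 at least 2-fold lower, beside 8.05% and 17% of all genes; the lower count is near that background, most of the list passed 2-fold in neither direction, and no test set the list apart. The higher ones were gata1a, with log2 ratios of 1.19 on plate 20 and 1.34 on plate 21, klf1 with 1.72 and 2.08, NFE2 with 1.101 and 1.08, and klf17 with 2.47 and 2.99. The lower ones were the myeloid factors SPI1, at -4.33 and -5.29, and spi1a, at -3.64 and -4.13, and FLI1, an ETS factor of endothelium and megakaryocytes, at -2.99 and -3.41. MYB was at -0.78 and -0.44, HDAC1 at -0.39 and 0.22, and CBFA2T3 at 1.05 and 0.79. The log2 ratios of TAL1 and LMO2, near 0.7, therefore lay between those of MYB and those of gata1a, and GFI1B had a ratio between those of gata1a and klf1.

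Erythroid genes, from 32 names for heme, membrane and iron proteins, gave 22 matched rows and 19 tested genes. None was called between the classes by edgeR's quasi-likelihood test. Of the 19, 18 had log2 folds of double over single cells below 0 and 1 above. Their median was -0.43, beside 0.01 over all genes tested. In globin-rich against low-globin cells 14 of the 19 were at least 2-fold higher on both plates and 0 at least 2-fold lower. Over 8480 non-globin genes these shares were 8.05% and 17%. The median log2 ratio was 2.12 for the erythroid genes and -0.04 over the 8480. alas2, for the first enzyme of heme synthesis in red cells, had log2 ratios of 4.37 and 4.50, and cahz, a red cell carbonic anhydrase gene, 3.97 and 4.14; both were chosen for mention after their values were seen.

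Close relatives of LMO2 and GFI1B had fewer transcripts and are named here after their values were seen. GFI1, a paralog that represses in myeloid and lymphoid cells in mammals, had 4 transcripts over all cells and gfi1aa had 2, against 78.01 on plate 20 and 77 on plate 21 for GFI1B. lmo4a and LMO4, genes for other LIM-only proteins, had 91 and 57 transcripts, against 1348 for LMO2.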

How the data were processed

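CEL-seq2 libraries of single sorted cells from 2 plates were used. The authors deposited expected counts for each gene in each well, unscaled; reads were aligned with BWA to Zv9, per the submitters' processing notes, and the counting tool is not given in the sources used here. Of 1273614 values above 0, 100% equalled a whole number of identifiers corrected for 4096 possible identifiers, within 0.01. The authors' layouts gave the sort class of each well, per the file headers.

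Values were summed per plate and class over wells with at least 500 transcripts, spike-ins left out, rounded to whole numbers and tested by edgeR 4.0.16, two-sided, with its quasi-likelihood fit, TMM scaling, filterByExpr, plate as a block and 1 residual degree of freedom, in R 4.3.3, with Benjamini-Hochberg adjustment. With plate as a block, the p-values rest on how far the class difference varied between the plates. edgeR moderates this spread with that of all genes tested. The labels name no separate animals. DESeq2 1.42.0 was an alternative. The edgeR step was also run on counts simulated with known folds and the same dispersion for every gene. That run checks the code and lends no weight to the calls made here.

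Globin was the sum of 12 rows, of which several are near-identical copies that can share reads. Ratios by globin used 0.5 added to each count. Cells of at least 2000 transcripts, 514 of 575, were thinned to 2000 for co-detection; values expected over all draws were added after seeing the data, as were the restriction of low-globin cells to those with MYB and the globin-bin and cluster levels without the deepest well. Cells were clustered with scanpy 1.11.5 (2000 variable genes, 20 components, 15 neighbours, Leiden resolution 0.8), with the 3 genes and mitochondrial genes left out. Scaling within each plate was chosen after seeing that unscaled clusters split by plate. Cluster names needed at least 3 detected markers with at least 1 among its 10 leading genes; a cluster that met this on CCR9 alone is called by its leading genes. Wells were filled by sorting and doublets were not called, so wells with more than 1 cell may be among those used, also for co-detection. The wells of the plates share no cells, and the 21 undefined wells entered no comparison.

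Named genes were the 3 members, the 6 partner genes with most transcripts and the 5 genes most like each member by Pearson correlation over sums of at least 20000 transcripts, among genes with 200 transcripts or more on the scale log2(non-globin CPM + 10). Of 19955 gene rows, 15742 had a name, many of them human symbols. The genes and lists were chosen with earlier results of these data known. No sequences or coordinates are given.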

Additional observations from a re-analysis of the deposited data

Results flagged for a closer look

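The undefined wells, which entered no comparison, held signal of both common genes. In their 16 cells TAL1 had 34.01 transcripts and LMO2 24.02, above the 3 counts that a value of 0 allows. As CPM of all transcripts TAL1 had 265 in the 7 cells of plate 20 and 273 in the 9 cells of plate 21, and LMO2 had 124 and 244. GFI1B had 1 transcript on plate 20 and 0 on plate 21. No group of 4 or more samples was there to test for outlying values.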

How the results depend on the processing

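For double over single cells, 36 of 39 alternative values of the 3 genes had the main direction, and those with a test by edgeR or DESeq2 had adjusted p-values of 0.581 to 0.9999. The exceptions were LMO2 at 0.0613 and GFI1B at 0.119 without cells of at least 5% globin, and GFI1B at 0.0276 on plate 20 alone. Leaving out each plate gave -0.15 to -0.14 for TAL1, -0.0887 to -0.0129 for LMO2 and -0.289 to 0.0276 for GFI1B, as values with no test and no count of calls. Without the replicate block the log2 folds were -0.14, -0.05 and -0.13, and 0 genes were called. The main 0 calls became 28 with DESeq2's Wald test, 368 when low counts were kept, 3 with the plate 21 layout read down columns and 45 without 10 wells rich in muscle or epidermis genes; the cause was not tested.

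The log2 ratios of globin-rich over low-globin cells, in the order TAL1, LMO2, GFI1B, were 0.69, 0.67 and 1.46. They were 0.54, 0.52 and 1.31 as CPM of all transcripts, 0.94, 0.84 and 1.66 with limits of 0.5% and 10%, and -0.19, 1.1 and 0.75 with limits of 2% and 20%, which leaves 11 cells at the high end. They were 1.23, 1.22 and 2.24 with cells weighted equally, 0.61, 0.59 and 1.38 without muscle or epidermis wells, 0.75, 0.57 and 1.32 in double cells, 0.50, 0.84 and 2.53 in single cells, and 0.36, 0.36 and 1.13 against low-globin cells with MYB. The 2.53 of GFI1B depends on the added 0.5, since low-globin single cells of plate 21 had 0 GFI1B transcripts. In single cells of plate 20 GFI1B had 21.2 CPM in globin-rich against 17.3 in low-globin cells.

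The co-detection difference of TAL1 and LMO2, 20.1 points in 1 draw, was 7.39 at 1000 transcripts, 30.7 at 4000, 62.99 without thinning and 2.18 in cells of at least 1% globin. That of TAL1 and GFI1B, 2.23 points, was 6.16 at 4000, 21.98 without thinning and 0.0835 in cells of at least 1% globin. That of LMO2 and GFI1B, 4.69 points, was 17.99 without thinning. For the co-detection values, plates taken singly ranged from 19.4 to 20.9, 0.961 to 3.501 and 2.26 to 7.11 points. Depth limits GFI1B most, with 78.01 and 77 transcripts on plates 20 and 21.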
